A study of Mus musculus with 13 samples.

Results

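Broad regions of histone H3 monomethylated at lysine 4 (H3K4me1) that carried no acetylation of lysine 27 (H3K27ac) were examined in Hepa 1-6, a mouse hepatoma line. A member was a region of the deposited H3K4me1 list of at least 1000 bp that shared not even 1 bp with any region called for H3K27ac or for H3K9me3, the mark of silenced chromatin. The rule took 4878 of the 23107 H3K4me1 regions of that width (21.1%), and of 74014 listed in all. The members were thus chosen by the H3K4me1, H3K27ac and H3K9me3 calls, and their lack of both other marks is no result. They were compared with the 16573 H3K4me1 regions of the same minimum width that touched H3K27ac and no H3K9me3. The remaining regions of that width touched H3K9me3 alone (738) or both marks (918).

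The series holds chromatin immunoprecipitations followed by sequencing (ChIP-seq) from 13 samples, 5 of them inputs, and each of the 8 deposited lists comes from 1 library. The 3 histone marks and KAP1 (gene Trim28), a corepressor that zinc finger proteins bring to DNA, were profiled in cells under standard culture. RNA polymerases II and III (PolII, PolIII) were profiled 5 days after the cells received a short hairpin RNA, either against KAP1 (Kap1 KD) or as a control, and the study's methods describe that control as an empty vector. All samples come from this line, so no result here speaks for liver tissue. The lists hold positions and no read counts, so depth is unknown and no value has a replicate error. Intervals in brackets are 95% intervals that cover counting error over regions only. Neighbouring regions are not independent and are not replicate samples, so each p-value describes these lists, not a condition.

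H3K4me1 is laid down at enhancers and on the flanks of promoters by methyltransferases of the MLL3/MLL4 type, and H3K27ac by the acetyltransferases CBP and p300. At enhancers H3K27ac is generally read as a sign of activity, and distal H3K4me1 sites that lack it are often called primed. At active genes H3K4me1 also lies in the first part of the transcribed body, next to the trimethylated start. Lists of positions do not measure the activity of an enhancer or of a gene, and the word primed is not used for the regions described here.

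The following 8 stretches, from the NCBIM37 (mm9) reference and read on its forward strand, show members that the results name, and none overlaps an annotated exon. Capitals mark every match, on either strand, to 7 short motifs of transcription factors (FOXA TGTTTNC, HNF4A CAAAGTCCA, C/EBP TTGCNNAA, AP-1 TGANTCA, TEAD CATTCCA, ETS CCGGAAG, SP/KLF GGGCGGG) or to a CTCF motif. The first is the centre of a member in an intron of Vapa, the third widest of all, and holds 2 FOXA matches.
Vapa intron at chr17:65957196-65957495: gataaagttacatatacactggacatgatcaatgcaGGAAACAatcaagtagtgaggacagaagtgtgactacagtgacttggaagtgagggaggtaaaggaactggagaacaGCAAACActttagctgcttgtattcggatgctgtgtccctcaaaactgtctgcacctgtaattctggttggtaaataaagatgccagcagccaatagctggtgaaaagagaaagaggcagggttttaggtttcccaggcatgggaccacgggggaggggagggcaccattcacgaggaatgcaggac
The next 2 come from members outside protein-coding genes with the highest KAP1 scores among those that also touched PolII in both conditions, each from the middle of the stretch shared with the KAP1 peak.
Pdia4 side at chr6:47737600-47737899: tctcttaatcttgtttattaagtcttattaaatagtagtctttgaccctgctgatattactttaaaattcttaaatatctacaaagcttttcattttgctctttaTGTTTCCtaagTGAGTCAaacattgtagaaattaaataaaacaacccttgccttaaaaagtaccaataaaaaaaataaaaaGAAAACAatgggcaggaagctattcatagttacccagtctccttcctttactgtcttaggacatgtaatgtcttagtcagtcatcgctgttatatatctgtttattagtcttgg
Fam83a side at chr15:57806911-57807210: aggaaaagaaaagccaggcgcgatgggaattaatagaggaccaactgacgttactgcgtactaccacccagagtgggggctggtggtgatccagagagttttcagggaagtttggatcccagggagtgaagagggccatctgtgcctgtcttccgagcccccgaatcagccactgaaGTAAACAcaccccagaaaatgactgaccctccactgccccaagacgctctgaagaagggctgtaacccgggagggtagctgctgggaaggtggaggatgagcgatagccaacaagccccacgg
The next 2 come from members outside protein-coding genes under KAP1 peaks of the highest listed score with no PolII peak.
Fcgr4 side at chr1:172964339-172964638: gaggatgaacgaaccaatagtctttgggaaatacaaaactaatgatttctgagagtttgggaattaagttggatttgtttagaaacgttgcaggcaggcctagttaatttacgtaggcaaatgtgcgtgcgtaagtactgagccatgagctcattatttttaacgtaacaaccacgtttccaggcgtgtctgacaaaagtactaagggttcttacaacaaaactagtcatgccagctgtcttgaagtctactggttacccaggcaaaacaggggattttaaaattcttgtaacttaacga
Dnttip2 side at chr3:121995318-121995617: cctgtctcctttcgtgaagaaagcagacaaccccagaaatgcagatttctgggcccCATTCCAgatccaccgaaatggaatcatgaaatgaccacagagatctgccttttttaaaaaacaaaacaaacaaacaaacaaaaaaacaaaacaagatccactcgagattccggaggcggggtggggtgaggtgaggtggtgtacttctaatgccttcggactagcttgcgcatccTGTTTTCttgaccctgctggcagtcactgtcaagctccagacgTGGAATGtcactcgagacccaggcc
The last 3 are the centres of members over 3 kb from a gene start with 3 AP-1 matches each, taken by width from the 4 members with that many. They were picked after the motif counts were seen.
Intergenic at chr19:32675585-32675884: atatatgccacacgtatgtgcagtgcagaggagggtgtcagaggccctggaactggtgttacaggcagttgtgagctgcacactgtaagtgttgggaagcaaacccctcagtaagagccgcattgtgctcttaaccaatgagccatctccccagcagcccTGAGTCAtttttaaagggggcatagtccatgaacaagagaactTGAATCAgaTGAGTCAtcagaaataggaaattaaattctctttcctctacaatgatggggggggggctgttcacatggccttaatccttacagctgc
Plch1 intron at chr3:63609488-63609787: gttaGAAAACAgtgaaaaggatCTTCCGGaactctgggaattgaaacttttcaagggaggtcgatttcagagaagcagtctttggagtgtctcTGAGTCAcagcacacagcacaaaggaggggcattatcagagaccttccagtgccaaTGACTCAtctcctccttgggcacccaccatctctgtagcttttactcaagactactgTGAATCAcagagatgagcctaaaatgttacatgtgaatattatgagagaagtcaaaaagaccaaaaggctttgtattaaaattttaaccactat
Csmd3 intron at chr15:48378304-48378603: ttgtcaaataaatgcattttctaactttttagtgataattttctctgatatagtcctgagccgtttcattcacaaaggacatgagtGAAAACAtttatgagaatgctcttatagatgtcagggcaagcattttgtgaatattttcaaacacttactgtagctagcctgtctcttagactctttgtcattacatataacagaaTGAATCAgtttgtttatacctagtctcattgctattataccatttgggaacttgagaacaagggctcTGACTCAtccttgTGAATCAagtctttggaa

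The members were narrower than the regions with H3K27ac of the same minimum width. Their median width was 1355 bp, against 1723 bp, 80% of them lay between 1052 and 2256 bp, and together they covered 7.55 Mb against 35.6 Mb. The widest, of 9470 bp at chr2:168015955-168025424, lay in introns of Adnp, a homeodomain zinc finger protein gene, and of Dpm1, a mannosyltransferase subunit gene. It was followed by members of 7357 bp in G3bp1 (a stress granule protein), 7118 bp in Vapa (an endoplasmic reticulum membrane protein), 6897 bp between genes nearest to Wdr69, and 6599 bp in Asap1 (an Arf GTPase activator). None of these 5 touched a KAP1 or a control PolII peak, and those in Adnp, G3bp1 and Asap1 touched a Kap1 KD PolII peak. The width limit cut through a large population, since 27736 of the 50907 narrower H3K4me1 regions (54.5%) also lacked both marks. Less than 100 bp above the limit, members touched KAP1 in 3.37%, control PolII in 2.92% and Kap1 KD PolII in 6.97% of cases, and regions without both marks up to 100 bp below it did so in 5.45%, 2.36% and 6.36%. At the other limit, the 93 members less than 100 bp from H3K27ac touched KAP1 in 4.30%, control PolII in 3.23% and Kap1 KD PolII in 12.9% of cases, and the 183 regions that shared under 100 bp with H3K27ac did so in 7.65%, 6.56% and 15.3%.

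KAP1 and PolII were both less frequent at H3K4me1 regions without H3K27ac. KAP1 peaks touched 222 of the 4878 members (4.55%, 4.001 to 5.17), against 2928 of the 16573 regions with H3K27ac (17.7%, 17.1 to 18.3) and 14.4% of all H3K4me1 regions of 1000 bp or more. The odds ratio was 0.222 (0.193 to 0.256, p = 3.76e-140, Fisher's exact test, two-sided). In the control, PolII touched 197 members (4.04%, 3.52 to 4.63) against 9.86% with H3K27ac, and 8.26% of all regions, with an odds ratio of 0.385 (0.331 to 0.448, p = 4.7e-43, Fisher's exact test). Under Kap1 KD it touched 461 members (9.45%, 8.66 to 10.3) against 24.5%, and 20.4% of all regions, with an odds ratio of 0.321 (0.290 to 0.356, p = 9.44e-130, Fisher's exact test). Members in which no KAP1 and no PolII of either condition was called numbered 4210 (86.3%), against 65.8% with H3K27ac.

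**Figure D1:**
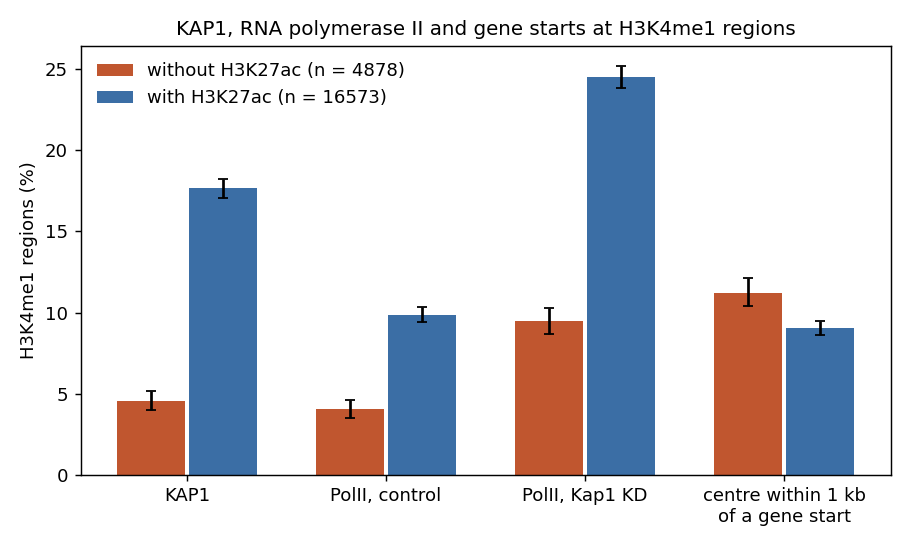
Share of H3K4me1 regions of 1000 bp or more, in percent, that overlap a KAP1, control PolII or Kap1 KD PolII peak, or that have their centre within 1 kb of a gene start. Bars are the regions without (n = 4878) and with H3K27ac (n = 16573), none with H3K9me3, and lines are 95% Wilson intervals. The regions without H3K27ac are lower for all 3 peak lists (4.55% against 17.7% for KAP1) and higher at gene starts (11.2% against 9.03%).

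The differences remained when regions of like width were compared, with Mantel-Haenszel odds ratios over 5 classes of width of 0.241 for KAP1, 0.496 for control PolII and 0.4004 for Kap1 KD PolII. The KAP1 share of members was between 3.96% and 5.27% in every width class below 3000 bp and was 7.19% above, whereas regions with H3K27ac ranged from 15.1% to 22.8%. The Kap1 KD PolII share rose with width in both classes, from 6.41% of the members below 1200 bp to 29.4% of the 153 members of 3000 bp or more, against 17.3% and 41.1% where H3K27ac was present.

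Most members lay near H3K27ac without touching it. The median gap to the nearest H3K27ac region was 4428 bp, 24.8% of the members were within 1 kb and 66.0% within 10 kb. The share with KAP1 was 8.67% (6.80 to 11) at a gap below 0.5 kb and 10.8% (8.44 to 13.8) between 0.5 and 1 kb, and it was 2.51% (1.80 to 3.49) between 1 and 5 kb, 3.46% between 5 and 20 kb and 2.66% beyond. Kap1 KD PolII touched 16.0% of the nearest members and 3.55% of those over 20 kb away, and control PolII 6.21% and 0.788%. With only the members at least 1 kb from both marks, the odds ratio for KAP1 against the regions with H3K27ac was 0.131. Centres within 1 kb of a gene start made up 14.0% of the members below 0.5 kb and 24.95% between 0.5 and 1 kb. In the classes farther away they made up 7.69% to 9.46%. The part of this position in the KAP1 shares was not tested.

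**Figure D2:**
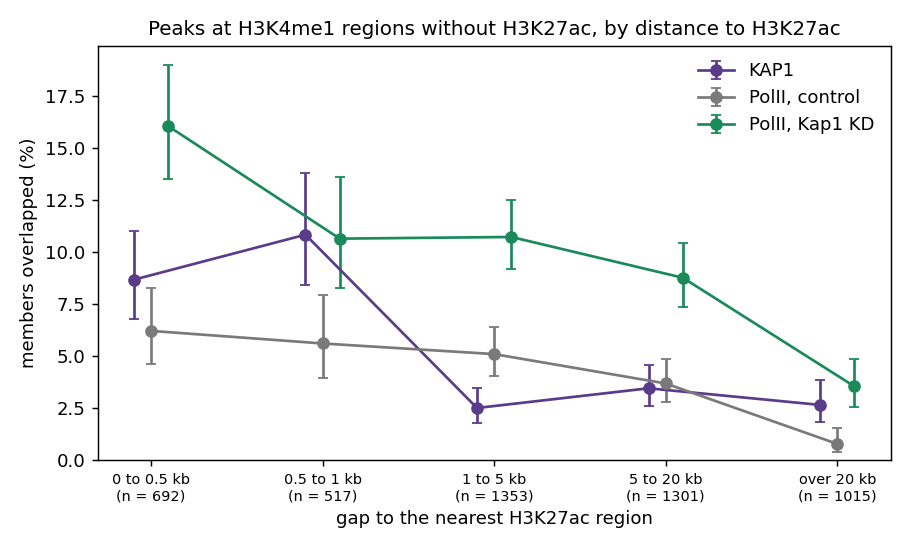
Share of the members, in percent, that overlap a KAP1, control PolII or Kap1 KD PolII peak, by the gap in kb to the nearest H3K27ac region (n under each class). Points are shares and lines are 95% Wilson intervals. The KAP1 share drops from 10.8% to 2.51% past 1 kb, while the Kap1 KD PolII share is 16.0% below 0.5 kb, 10.7% between 1 and 5 kb and 3.55% beyond 20 kb.

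The KAP1 peaks behind these overlaps mostly had their centre elsewhere. The 222 members met 220 KAP1 peaks, of which 41 (18.6%) had their centre inside a member and 104 (47.3%) also touched an H3K27ac region, whereas 33.0% of the KAP1 peaks at regions with H3K27ac, which were wider, were centred there. For PolII the shares were alike, at 34.8% and 33.5% in the control and 41.0% and 41.7% under Kap1 KD. The median score, the authors' value for each peak, was 96.5 for the KAP1 peaks at members against 101.5 for the list, 106 against 40 for control PolII and 105 against 48 for Kap1 KD PolII. The 187 control PolII peaks at members were long, with a median width of 3020 bp against 921 bp for that list, and the 449 Kap1 KD PolII peaks had a median of 1903 bp against 799 bp. Long peaks meet more regions by their length alone, so no level was read from these overlaps.

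Members with KAP1 held PolII more often than members without it, although most of them held none. Control PolII touched 32 of the 222 members with KAP1 (14.4%, 10.4 to 19.6) and 165 of the 4656 without (3.54%), an odds ratio of 4.58 (3.06 to 6.88, p = 1.3e-10, Fisher's exact test, two-sided). For Kap1 KD PolII the counts were 51 of 222 (23.0%) and 410 of 4656 (8.81%), an odds ratio of 3.09 (2.22 to 4.29, p = 8.27e-10, Fisher's exact test). Within classes of width and distance to a gene start the ratios were 3.73 and 2.46. Where at least 0.5 of a peak had to lie inside the member, few pairs were left and the ratios of 2.85 (p = 0.306) and 1.76 (p = 0.327) were not past the threshold of 0.05 in Fisher's exact test. The same held at regions with H3K27ac, where control PolII touched 25.3% of those with KAP1 and 6.54% of those without (odds ratio 4.85, 4.36 to 5.40) and Kap1 KD PolII 49.4% and 19.2% (4.11, 3.78 to 4.47), so the association is not particular to the members. All 3 lists met at 27 members, and 166 members held KAP1 with no PolII.

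Of the 6 members named for a high KAP1 score, 3 with PolII of both conditions and 3 with none, 4 lay between protein-coding genes and met PolIII. Over all members, control PolIII met 0.759% and Kap1 KD PolIII 0.574%, and over all H3K4me1 regions of 1000 bp or more 0.749% and 0.312%. The member at chr6:47736761-47737995, 26133 bp from Pdia4 (a protein disulphide isomerase), met a KAP1 peak of score 3100, which is the ceiling of the list, PolII of both conditions and PolIII of both conditions. That at chr15:57806140-57807476, 10166 bp from Fam83a, met KAP1 at a score of 2835 with the same 4 polymerase lists. The third member with KAP1 and PolII of both conditions, at chr11:101490868-101493489 in Rdm1 (a gene for a protein with an RNA recognition motif), shared only its first 93 bp with a KAP1 peak of score 2596 and met no PolIII. Of the 3 members with KAP1 at the ceiling score and no PolII, that at chr1:172964178-172965266 met PolIII in both conditions and that at chr3:121994680-121995688 in the control, whereas the third lay over Ccdc107 and met none. The annotation used lists no transfer RNA genes, so whether any lies there was not tested.

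Among the members with PolII and no KAP1, the highest control score belonged to a member in Axin2, a Wnt target gene and inhibitor of the pathway. It lay at chr11:108805553-108807276, 24752 bp inside the gene and 1480 bp from the start of a shorter transcript, under a control PolII peak from 108781597 to 108814575 that spanned the gene and a Kap1 KD peak from 108805019 to 108815463. The next were a member at chr3:96287778-96288869, outside annotated genes, and one at chr13:98261028-98263037 in the noncoding gene Gm11019, both under PolII peaks of both conditions.

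More members were called for PolII under Kap1 KD than in the control, in step with the longer list. PolII was called in both conditions at 156 members, in the control alone at 41 and under Kap1 KD alone at 305. The ratio of Kap1 KD to control calls was 2.34 at members and 2.49 at regions with H3K27ac. Of the Kap1 KD PolII members, 156 of 461 (33.8%, 29.7 to 38.3) were also called in the control, against 1425 of 4065 (35.1%, 33.6 to 36.5) with H3K27ac. The odds ratio of 0.948 (0.773 to 1.16, p = 0.643, Fisher's exact test, two-sided) gave no difference past the threshold, though its interval allows one in either direction. Counting peaks within 1 kb of the region instead gave 0.640 (p = 2.05e-11), and leaving out chromosome 15 gave 1.23 (p = 0.0732), both by Fisher's exact test. Numbers are missing from the running names of both PolII lists (31.4% in the control, 22.6% under Kap1 KD). Calls may have been removed before deposit, which was not tested. Of the 305 members called under Kap1 KD alone, 68 (22.3%) lay where control numbers were missing, and of all members without PolII 19.9% did. Of the 41 called in the control alone, 13 (31.7%) lay where Kap1 KD numbers were missing, against 12.1% of the members without PolII. The 3 members with the highest Kap1 KD scores and no control peak within 1 kb all lay in Ywhae, the gene of a 14-3-3 protein, under 1 peak from 75545848 to 75585427 on chromosome 11, in a stretch of 425275 bp where 2 control numbers are missing. These 3 are therefore 1 observation, and a difference between the conditions there cannot be told apart from a possible removal of a control call.

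Members were largely genic. A gene start was the annotated start of a transcript of a protein-coding gene. Of the 4878 members, 548 (11.2%) had their centre within 1 kb of a start, 1206 (24.7%) at 1 to 3 kb, 113 (2.32%) farther away in exons, 1777 (36.4%) in introns and 1234 (25.3%) between protein-coding genes, although 60.1% of the genome lies in that last class. Of the regions with H3K27ac, 28.0% were intronic and 33.6% intergenic. A protein-coding gene body held or touched 71.5% of the members and 58.6% of the regions with H3K27ac. The share within 1 kb of a start was higher than with H3K27ac (11.2%, 10.4 to 12.1, against 9.03%, and 9.09% of all regions, odds ratio 1.27, 1.15 to 1.42, p = 6.01e-06, Fisher's exact test, two-sided). This excess was not found over 5 classes of width (Mantel-Haenszel odds ratio 1.01). With members at least 1 kb from both marks the ratio was 1.001 (p = 1), and within 3 kb of a start it turned to 0.959 (p = 0.217), both by Fisher's exact test.

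Members near gene starts, though not at them, lay mostly on the transcribed side. Of the centres 500 to 3000 bp from the nearest start, 1179 of 1572 (75%, 72.8 to 77.1) were downstream, against 3398 of 5664 (60.0%, 58.7 to 61.3) with H3K27ac. The odds ratio was 2.001 (1.76 to 2.27, p = 8.19e-29, Fisher's exact test, two-sided). This comparison was added after the counts were seen, and in its alternatives the ratio lay between 1.75 and 2.34. As a share of the whole class, the members exceeded the regions with H3K27ac downstream (24.2% against 20.5%) and fell short of them upstream (8.06% against 13.7%). The members' most frequent position was 1000 to 1500 bp downstream, with 7.71% of them in that class alone.

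**Figure D3:**
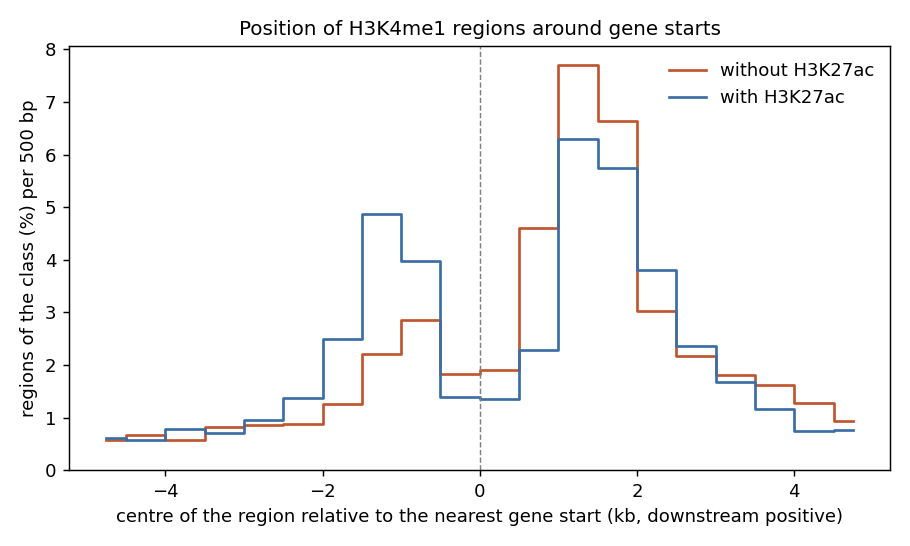
Position of the region centres relative to the nearest gene start, from 5 kb upstream to 5 kb downstream, in classes of 500 bp, as percent of the 4878 regions without and the 16573 regions with H3K27ac. Downstream is positive, and both curves dip at the start. The upstream peak is 4.87% with H3K27ac and 2.85% without, and the downstream peak is 7.71% without and 6.31% with it.

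PolII was most frequent at members in exons and near gene starts. Kap1 KD PolII touched 16.4% of those within 1 kb of a start, 9.95% at 1 to 3 kb, 7.93% in introns, 6.73% between genes and 23.9% of the 113 in exons, and for control PolII the shares were 6.93%, 4.395%, 3.15%, 2.76% and 14.2%. KAP1 touched 9.85% within 1 kb of a start, 6.22% at 1 to 3 kb, 2.14% in introns, 4.29% between genes and 1.77% (2 of 113) in exons. Each share was below that of the regions with H3K27ac in the same position, for instance 2.14% against 12.2% for KAP1 in introns. The gap was small for control PolII in exons, with 16 of 113 (14.2%) against 38 of 233 (16.3%).

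A member lay in or within 10 kb of 4132 of the 22367 protein-coding genes (18.5%), and 2668 genes held at least 1 member in their body, 541 of them 2 or more and 52 of them 5 or more. Genes with a member in the body were long (median 34.3 kb, against 13.6 kb for those without) and had control PolII over their promoter, the 250 bp on either side of its 5′ end, in 29.8% of cases against 10.9%. The 1334 genes that held a member and no region with H3K27ac had control PolII at 22.4% and H3K27ac at 32.8% of their promoters. The 4228 genes with the opposite makeup had 35.0% and 48.8%, and all genes 13.2% and 19.96%. Both groups were formed with the H3K27ac list, so the gap between them in H3K27ac is no result. Gene length differs between these groups, and its part in the promoter shares was not tested.

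The genes with the most members were mostly on chromosome 15. The first, Gm20388, held 29 and the second, Fgfr2 (a fibroblast growth factor receptor), held 17, but their annotated models span 4435 and 3009 kb. They were followed by Asap1 with 16, Ext1 (a heparan sulphate polymerase subunit) with 14, Myo10 (an unconventional myosin) with 12, and Fam49b, Nsmce2 (a SUMO ligase of the SMC5/6 complex), Kcnq3 (a potassium channel) and Magi1 (a junction scaffold) with 10 each. Smurf1, a ubiquitin ligase of the BMP and TGF-beta pathway on chromosome 5, held 8 members in 89.3 kb. All but Gm20388, Fgfr2, Magi1 and Smurf1 lie on chromosome 15. None of the members in these genes other than 2 in Gm20388 touched KAP1, which met 4.55% of all members. Kap1 KD PolII touched 8 of the 16 in Asap1, 4 in Fam49b, 3 in Nsmce2, 2 in Myo10, 1 in Ext1 and 1 in Smurf1, and none in the other 4 genes, against 9.45% of all members. Control PolII touched 3 of the 12 in Myo10 and 2 each in Asap1 and Ext1, and none in the other 7 genes, against 4.04% of all members.

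Chromosome 15 held 864 members (17.7% of all) on 3.90% of the genome, or 8.35 per Mb, while chromosomes 9, 12, 14, 16 and X held between 0.264 and 0.539 per Mb. The other lists were uneven too. On chromosome 15 there were 38.5 H3K27ac, 68.7 H3K9me3, 8.41 KAP1 and 14.4 Kap1 KD PolII calls per Mb, and on chromosome 12 there were 11.5, 19.8, 1.89 and 1.16. Of the regions of both classes on chromosome 15, 34.4% were members. That share ranged from 14.8% on chromosome 3 to 40.9% on chromosome 9 and 64.3% on X, where few regions of either class were called. On X, 85.1% of the 564 H3K4me1 regions of 1000 bp or more touched H3K9me3 and were thus in neither class. The copy number of the chromosomes in this line was not measured here, and its part in these densities was not tested. With chromosome as a stratum the odds ratios were 0.218 for KAP1, 0.368 for control PolII and 0.301 for Kap1 KD PolII.

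**Figure D4:**
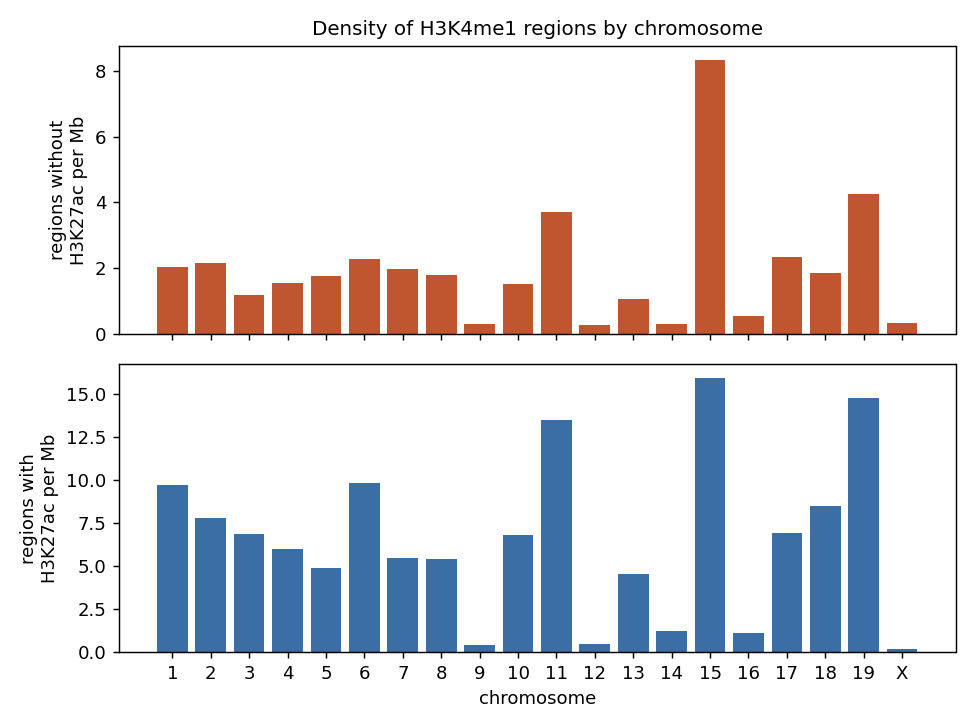
H3K4me1 regions of 1000 bp or more per Mb of each chromosome, without H3K27ac (upper panel) and with H3K27ac (lower panel). Each bar is 1 chromosome. Chromosome 15 stands highest in both, at 8.35 per Mb without H3K27ac. In the upper panel chromosomes 9, 12, 14, 16 and X lie at or below 0.539.

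The gene lists were read by position only, and each was chosen with earlier results of these data known. Of 24 genes of liver transcription factors, 8 had a member in or within 10 kb of the gene (33.3%, against 18.5% of all genes), and 14 (58.3%, against 34.7% of all genes) had a region with H3K27ac there. Among them, Cebpb, a leucine zipper factor of the acute phase response, had 2 members, and Hnf4a, a nuclear receptor of hepatocytes, Onecut2, Nr5a2, Nr1h4, Xbp1 and Creb3l3 had 1 each. Of 36 genes of hepatocyte products, 5 had a member (13.9%), namely Apoe, Apoh, Fgb, Hp and Serpinc1, with 1 each. As a check of the label, H3K27ac lay over the promoters of 8 of the 24 and 8 of the 36 genes, Alb and Afp included, over 0 of 19 neuronal, 0 of 18 muscle and 1 of 19 blood lineage genes, and over 19.96% of all promoters. Control PolII lay over 1 of the 36 hepatocyte product promoters and over 13.2% of all promoters. At their promoters the hepatocyte products thus stood near all genes for H3K27ac and below them for PolII. An H3K4me1 region with H3K27ac lay in or within 10 kb of 6 of the 36 (16.7%, against 34.7% of all genes). These counts were not tested.

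Immediate early genes, which cells switch on within minutes of a stimulus, had a member in 11 of 23 cases (47.8%, against 18.5% of all genes). Regions with H3K27ac lay as near to 15 of the 23 (65.2%, against 34.7% of all genes). Dusp1, a phosphatase of MAP kinases, had 2, and Fosb, Fosl1, Junb, Jund, Myc, Klf4, Nr4a1, Cyr61, Ctgf and Zfp36 had 1 each. In Dusp1, Cyr61 and Ctgf, genes of about 3 kb in length, the member lay in the body under PolII of both conditions, and it met no KAP1. The member in the body of Zfp36, which is 2.47 kb long, met neither PolII list. Control PolII lay over 13 of the 23 promoters and H3K27ac over 10, and over 13.2% and 19.96% of the promoters of all genes.

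Genes of the Wnt, TGF-beta and Hippo pathways had a member in 11 of 30 cases (36.7%, against 18.5% of all genes), and a region with H3K27ac in 20 (66.7%, against 34.7%). Their median length was 86.9 kb, against 15.4 kb for all genes, and longer genes take in more regions. Tcf7l2, the transcription factor at the end of the Wnt pathway, had 6 members and 1 more within 50 kb, and none of its body members met KAP1 or PolII. The Wnt coreceptor Lrp6 had 4, the TGF-beta mediator Smad2 had 3, and Axin2, the receptor Tgfbr1 and the Hippo effector Tead4 had 2 each. Both members in the body of Axin2 met PolII of both conditions and 1 met KAP1. A list of enzymes of H3K4 methylation and H3K27 marks also holds Setdb1 and Trim28, which act on neither, and 8 of its 20 annotated genes had a member (40.0%, against 18.5% of all genes). A region with H3K27ac lay as near to 11 of the 20 (55%, against 34.7%), and their median length was 46.8 kb. Setd1b, an H3K4 methyltransferase, Ezh2, which methylates H3K27, and Kdm6b, which demethylates it, had 2 each, and Kdm5b, Ep300, Setd1a, Setdb1 (the H3K9 methyltransferase that works with KAP1) and Trim28 itself had 1 each. The neuronal list had 2 of 19 (Gria2 and Grin2b), the muscle list 1 of 18 (Tnnt2) and the blood list 2 of 19 (Cd3g and Pax5). These shares were between 5.56% and 10.5%, against 18.5% of all genes. Regions with H3K27ac lay as near to 4 of 19, 3 of 18 and 4 of 19, between 16.7% and 21.1%, against 34.7% of all genes.

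The members' centres were slightly richer in G and C than the genome. The central 300 bp had a mean GC content of 44.5% ± 6.55 (SD, n = 4878 regions), against 43.4% ± 6.45 with H3K27ac and 41.8% ± 7.29 over 51125 windows placed at even steps along the genome. Windows with at least 50% GC and a CpG frequency of at least 0.6 of that expected made up 0.718% of the members (0.516 to 0.996), 0.193% with H3K27ac and 0.818% of the genome windows. CpG-rich centres were therefore rare in both classes.

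Of the motifs searched, AP-1, the factor formed by FOS and JUN proteins, differed most from the genome windows in percentage points. Over 3 kb from a start, 21.1% of the 3124 members (19.7 to 22.5) held TGANTCA in the central 300 bp, against 18.01% (17.3 to 18.8) of the 10453 regions with H3K27ac and 8.81% (8.57 to 9.06) of the genome windows. The palindrome allows any middle base, and the forms differed. The form TGACTCA, read on either strand, was in 15.9% of these members (14.7 to 17.2), 12.8% with H3K27ac (12.2 to 13.4) and 4.71% of the genome windows. The form TGAATCA was in 6.21%, 6.15% and 4.34%. The members at Plch1, Csmd3 and on chromosome 19 printed above hold 3 matches each, and 2466 of the 3124 distal members hold none.

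**Figure D5:**
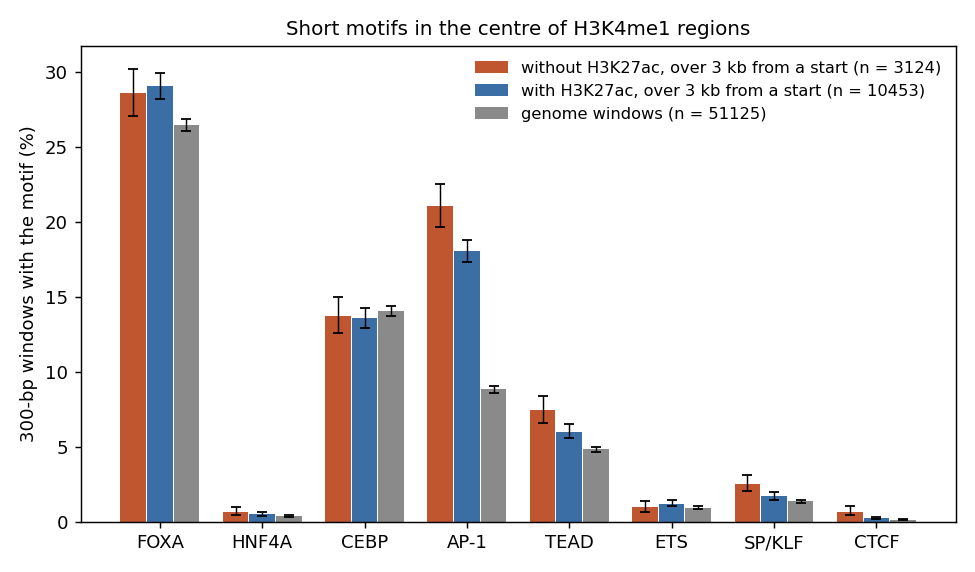
Share of 300-bp windows, in percent, that hold each short motif on either strand, for region centres over 3 kb from a gene start without (n = 3124) and with H3K27ac (n = 10453) and for even steps along the genome (n = 51125). Lines are 95% Wilson intervals. AP-1 stands at 21.1%, 18.01% and 8.81%, while FOXA (28.6%, 29.0% and 26.4%) and CEBP (13.7%, 13.6% and 14.0%) are close to the genome.

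The AP-1 share was not even among the members. TGACTCA was in 16.8% (15.5 to 18.3) of the distal members at least 1 kb from H3K27ac and in 10.4% (7.95 to 13.6) of those nearer. It was in 8.93% (6.12 to 12.9) of those with PolII of either condition and in 16.6% of those without, and regions with H3K27ac showed 7.96% and 14.0%. With and without KAP1 the shares were 14.0% (8.36 to 22.5) and 16.0%. On chromosome 15 the members stood at 10.9% (8.86 to 13.3) and on all other chromosomes at 17.5% (16.0 to 19.1), and the regions with H3K27ac at 11.7% and 12.9%, so the gap between the classes was not seen on chromosome 15. Within 1 kb of a start the share of members was 7.48%, and with H3K27ac 7.02%.

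Other motifs differed less in percentage points. FOXA letters were in 28.6% of the distal members and 26.4% of the genome windows, those of C/EBP in 13.7% and 14.0%, shares close to each other. TEAD letters were in 7.43% (6.56 to 8.40) of the distal members, 6.01% with H3K27ac and 4.81% (4.63 to 5.001) of the genome windows. HNF4A letters were in 0.640% of the distal members and 0.356% of the genome windows. SP/KLF letters were in 2.53% of the distal members, 1.70% with H3K27ac and 1.37% of the genome windows, and the CTCF motif in 0.672% (0.440 to 1.03), 0.220% and 0.129%. These matches are descriptions of letters in the reference, and no binding of any of these factors was measured.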

How the data were processed

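ChIP-seq lists from Hepa 1-6 cells were used as deposited. Per the methods of the study, the authors mapped reads with Bowtie to mm9, called KAP1 and PolII with MACS against total input and called histone marks with ChIP-Part. The methods name the first major version of Bowtie for peak calling. Other versions and the options were not given in the sources used here, nor the program behind PolIII. The deposited KAP1, PolII and PolIII lists carry a score per peak from the authors, used here only to rank peaks, and the meaning of the polymerase score was not stated. The histone lists hold positions only. The 5 input samples were not analysed here.

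The antibody and the cell labels gave the groups. Overlap meant at least 1 shared bp. Genes came from GENCODE M1 and sequences from NCBIM37, and printed positions count from 1. Shares were compared by Fisher's exact test with scipy 1.17.1 and strata by the Mantel-Haenszel ratio of statsmodels 0.14.6, after the interval functions and the unstratified odds ratio were checked on simulated lists. Adjusted together by the Benjamini-Hochberg method, 7 of the 8 comparisons were past 0.05, the largest adjusted p among them being 6.87e-06. Among the 7 is the side of the gene start, which was added after its counts were seen. Depth is unknown, so no interval covers it. The members, lists and tests were chosen with earlier results of these data known.

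Regions named were the 5 widest members, the 3 of highest KAP1 score with PolII of both conditions, the 3 with none, the 3 of highest control PolII score without KAP1 and the 3 of highest Kap1 KD PolII score with no control peak within 1 kb. Genes named were the 10 with most members and the 4 of each list with most members, with ties shown in full. The result for 1 gene of these lists is not reported here. Sequences at KAP1 peaks were taken from the middle of the stretch shared with the member, since many peak centres lay outside it. Alternatives changed the overlap, score, width, distance, strata and chromosomes used.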

Additional observations from a re-analysis of the deposited data

How the results depend on the processing

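Most of the alternatives for the 8 comparisons left out a single chromosome, and few of these differed. Of all 248, 234 gave the same direction and the same call. The lower shares of KAP1 (odds ratio 0.131 to 0.323), control PolII (0.306 to 0.587) and Kap1 KD PolII (0.251 to 0.462) at members kept both in every alternative run, as did the side of the gene start (1.75 to 2.34), whose comparison and alternatives were chosen after seeing the data, like every stratum by chromosome or by distance to a gene start. With at least 0.5 of the peak inside the region, the ratios at members with against without KAP1 were 2.85 (control) and 1.76 (Kap1 KD), not past the threshold, and few such members were left. The gene start ratio was 1.001 with members at least 1 kb from both marks, 1.26 for regions of 2000 bp or more, 1.01 within width classes and 0.959 within 3 kb of a start. The control call of Kap1 KD PolII regions passed the threshold at 0.558 (at least 0.5 inside) and 0.640 (within 1 kb), and lay above 1 with peaks above the median score (1.05), over 3 kb from a start (1.08), without chromosome 5 (1.025), without chromosome 15 (1.23), within width classes (1.01) and within width and start classes (1.04). The causes were not tested. Genes with a member made up 11.9% by the body alone and 33.1% with 50 kb to each side, and windows of 500 bp held every motif more often, being longer. No paired analysis was possible because each list comes from 1 library, and no replicate could be left out. Depth is unknown, so an absent call does not show an absent signal.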

Other observations

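A member lay over the promoter, 250 bp to each side of the 5′ end, of 159 protein-coding genes. Of these, 29 had control PolII over that promoter (18.2%, against 13.2% of all genes), 45 had Kap1 KD PolII (28.3% against 23.3%) and 25 had KAP1 (15.7% against 15.7%). No KAP1 and no PolII of either condition was called there at 105. The share of all genes with none of these calls was not counted, so the 105 are not read as a trait of these promoters. H3K27ac, outside the member, reached into 14 of the 159 promoter windows (8.81%, against 19.96% of all genes). The rule keeps H3K27ac off the member itself, so this lower share is no result. KAP1 and PolII of both conditions were called over the promoters of Dars (an aspartyl transfer RNA synthetase) and Pcgf6 (a Polycomb subunit), which had no H3K27ac there, and of Rbck1 (a subunit of the linear ubiquitin ligase) and Ecm1 (an extracellular matrix protein), which had it. These 4 were chosen after their values were seen.

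PolIII met 37 members in the control and 28 under Kap1 KD, 11 of them in both, and 15 of each number also met KAP1, which met 4.55% of all members. The lists differ in length (2772 peaks in the control, 431 under Kap1 KD) and in where they met members, with 22 of the 37 on chromosomes 1 to 4 and 2 on chromosome 15 in the control, and 1 of the 28 and 13 under Kap1 KD. The spread of the whole lists over chromosomes was not compared.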
